A study of Mus musculus with 24 samples.

Results

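The genes described here encode subunits and assembly factors of the mitochondrial respiratory chain and the ATP synthase. They were taken by symbol: every gene whose single symbol on the array begins with Nduf, Sdha, Sdhb, Sdhc, Sdhd, Uqcr, Cox4 to Cox8 or Atp5, with the probe set of highest mean log2 signal over the 24 arrays standing for the gene. This gave 94 genes of the 18193 measured. They comprised 34 complex I subunits and 8 complex I assembly factors, 4 complex II subunits and 4 of its assembly factors, and 8 complex III subunits. Complex IV contributed 11 widely expressed genes and 8 tissue-restricted isoforms, and the ATP synthase 17 subunits. The rule goes by symbols and not by differences between groups, and no gene was lost to a filter on low values.

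RNA came from progenitors sorted from KO mice, which carry the I74 null allele of Ikaros (Ikzf1), and from WT mice. Per the labels both genotypes carried the B-p-GFP-C transgene, which drives GFP from regulatory DNA of the Ikaros gene itself. The null allele was kept on C57BL/6 x 129SV and the reporter on C57BL/6 x C3H, so genotype and strain background cannot be told apart. In each genotype 4 populations were sorted. LSK GFPneg-lo cells are called HSC (stem cells) by the labels, LSK GFPhi cells LMPP (lymphoid-primed progenitors), LK GFPneg cells MEP (progenitors of megakaryocytes and red cells) and LK GFPhi cells GMP (progenitors of granulocytes and monocytes). Each of the 8 groups had 3 arrays named as biological replicates. Neither ages nor whether a replicate was 1 animal or a pool is given, so p-values measure the spread between these samples. The RNA is bulk, and a lower signal from fewer cells of a type cannot be told apart from one due to less RNA per cell.

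Complexes I and II pass electrons from NADH and succinate to coenzyme Q, complex III passes them on to cytochrome c, and complex IV reduces oxygen. The proton gradient built on the way drives the ATP synthase. Nearly all of these subunits are encoded in the nucleus and are made in every nucleated cell. Blood stem cells are known for relying less on oxidative phosphorylation than the progenitors they give rise to, and erythroid precursors for their many mitochondria, where haem synthesis begins and ends.

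The genotype labels held on every array. Ikzf1 read between 6.51 and 8.88 log2 units on KO arrays, against 10.99 to 11.99 on WT arrays, and was called lower in KO cells in all 4 populations. The WT LK populations carried the marker genes of their names: all 10 megakaryocyte and erythroid markers were lower, and all 9 granulocyte and monocyte markers higher, in LK GFPhi than in LK GFPneg cells. The mean of the 9 lymphoid-primed markers was 9.59 in WT LSK GFPhi, 9.39 in WT LK GFPhi and 7.67 in WT LSK GFPneg-lo cells, and that of the 8 stem cell markers was 10.83 in WT LSK GFPneg-lo and 9.24 in WT LSK GFPhi cells. The arrays numbered 2 stood apart from those numbered 1 and 3. Across the 8 groups their difference from the mean of the others averaged beyond 0.5 log2 units, in either direction, for 11 of the 94 genes (11.7%) and for 5.38% of all genes. It was largest for Atp5b (-0.79), Sdhd (-0.74), Ndufaf1 (-0.73), Ndufs3 (-0.72) and, upward, for Cox6b2 (0.52) and Ndufa5 (0.51). Of the 94 genes, 25 were higher on the arrays numbered 2 in all 8 groups (26.6%, against 9.92% of all genes) and 4 were lower in all 8 (4.26%, against 7.07%). For comparisons of 2 groups whose numbers pair the samples, a count that a fit with the replicate number as a block moves by over 1.5 times is followed by the count under the block.

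**Figure D1:**
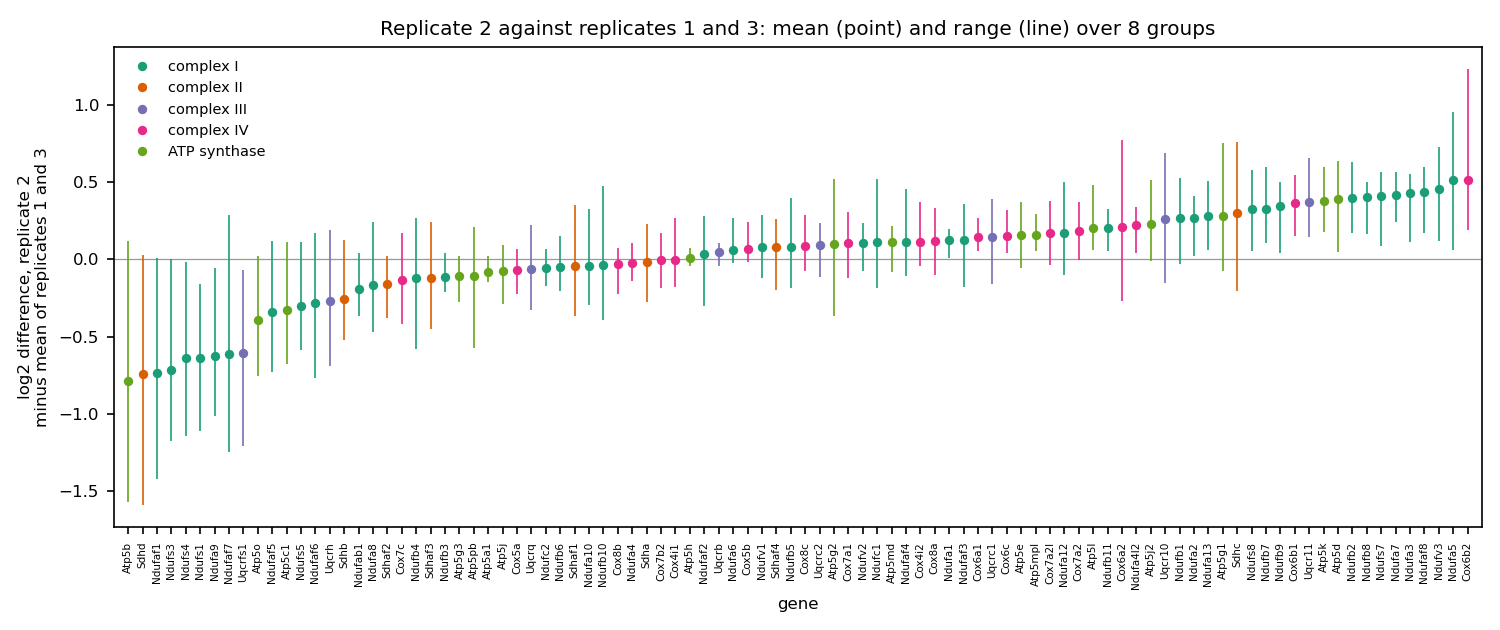
Log2 difference of the array numbered 2 from the mean of arrays 1 and 3 of the same group, for each of the 94 genes (x axis), coloured by complex. Points are means and lines the range over 8 groups. Atp5b lies lowest at -0.79 and Cox6b2 highest at 0.52.

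In mice of both genotypes the genes were most often highest in LK GFPneg cells. In KO mice the highest group mean was in LK GFPneg cells for 48 of the 94 genes and in LK GFPhi cells for 39. In WT mice 70 had their highest mean in LK GFPneg cells, 13 in LSK GFPhi, 9 in LK GFPhi and 2 in LSK GFPneg-lo cells. The lowest mean in KO mice lay in LSK GFPneg-lo cells for 52 genes and in LSK GFPhi cells for 23, and in WT mice for 42 and 35 genes. No share over all genes is at hand to set beside these counts, so they are not shown to be particular to the 94 genes.

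The mean log2 signal of the 94 genes was 10.76 ± 0.048 in KO LSK GFPneg-lo cells and 10.58 ± 0.094 in their WT counterparts (SD, n = 3 each, as in the next 3 values). In LSK GFPhi cells it was 10.82 ± 0.076 in KO and 10.60 ± 0.051 in WT cells. In LK GFPneg cells it was 11.04 ± 0.042 in KO and 10.98 ± 0.072 in WT cells. In LK GFPhi cells it was 10.95 ± 0.043 in KO and 10.77 ± 0.088 in WT cells. The KO mean was the higher in each population, by the least in LK GFPneg cells. The median of all genes lay between 7.27 and 7.50 in the 8 groups. The 94 genes are thus bright on average, and genes of like signal were not set beside them in any comparison.

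**Figure D2:**
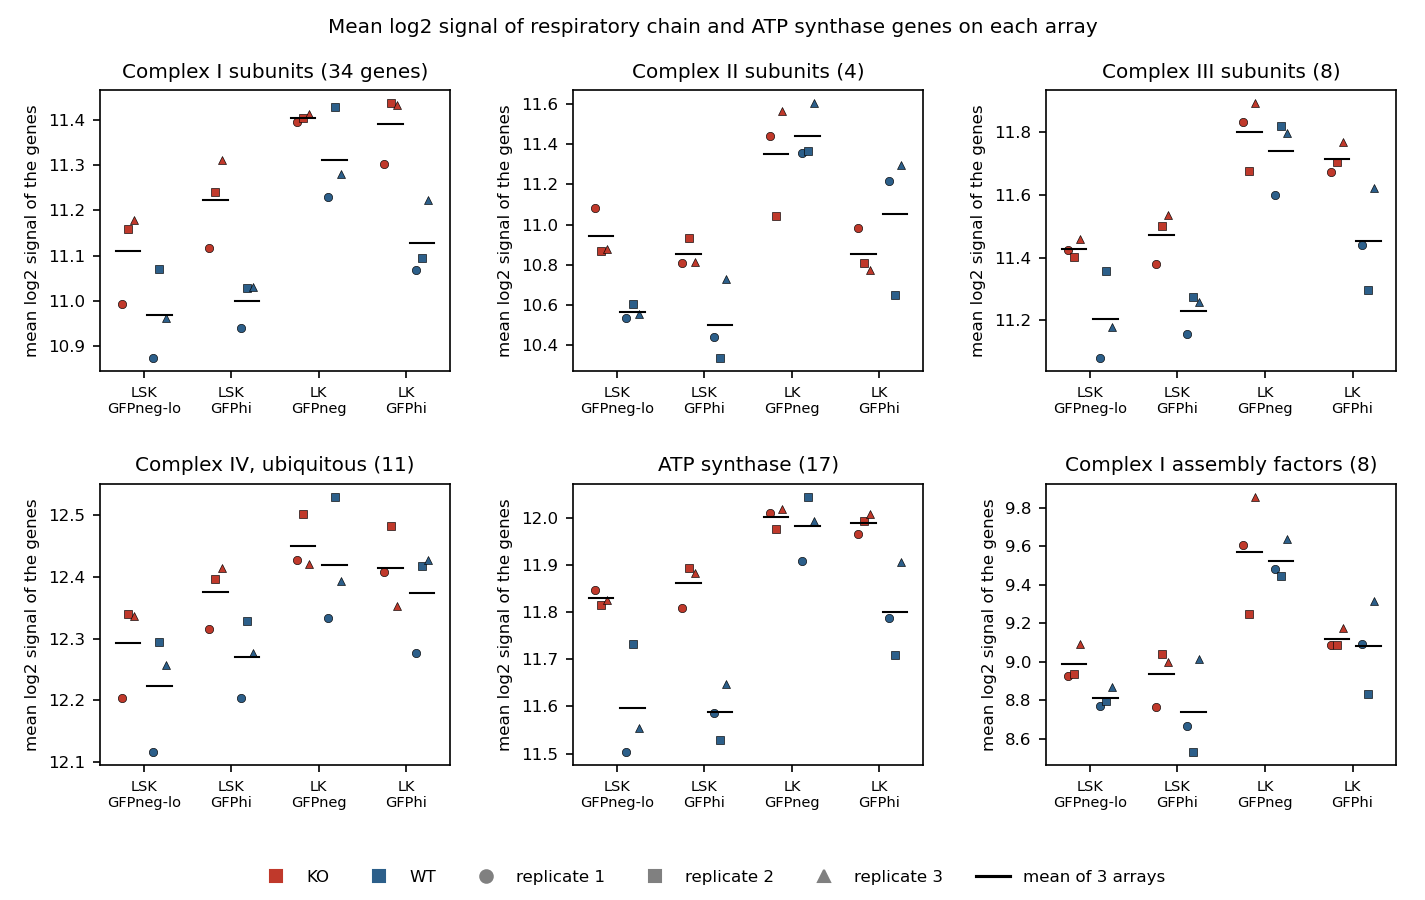
Mean log2 signal of the genes of 6 classes on each array (y axis), by population (x axis), KO in red and WT in blue, with the replicate number as the symbol and the mean of 3 arrays as a bar. Complex I subunits lie at 11.30 to 11.44 in KO LK GFPhi cells, above the 11.07 to 11.22 of WT LK GFPhi cells.

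WT LK GFPneg cells were compared with WT LSK GFPneg-lo cells to see how the genes differ between progenitors of the red cell and platelet lineages and stem cells. Of the 94 genes 42 were higher and 1 was lower in LK GFPneg cells at an adjusted p below 0.05 in limma, the threshold for every call here. Over all 18193 genes 27.1% were called in this comparison, 13% as higher and 14.1% as lower. The median log2 difference was 0.31 for the 94 genes and 0.03 for all genes. On the 3 arrays against 3, 50 of the 94 genes lay wholly above and 1 wholly below, against 21.6% and 18.8% of all genes. Without WT LSK GFPneg-lo replicate 1 the count of called genes was 28, and centring each array on its median raised the median of all genes by 0.17 and that of the 94 genes to 0.48.

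All 4 subunits of complex II were higher in WT LK GFPneg than in WT LSK GFPneg-lo cells. Sdhd, one of the membrane anchors of succinate dehydrogenase, had log2 signals of 11.71, 11.35 and 11.77 in LK GFPneg cells and of 10.34, 9.33 and 10.06 in LSK GFPneg-lo cells. The groups did not overlap, and the array numbered 2 was the lowest of each. The log2 difference was 1.70 ± 0.41 (SE; adjusted p = 0.00345). Sdhc, the other membrane anchor, differed by 0.77, Sdhb, the iron-sulfur subunit, by 0.62, and Sdha, the flavoprotein that oxidises succinate, by 0.44. The second probe set of Sdhc gave 0.25 and that of Sdhd 1.04, and the other probe sets of Sdha gave 0.06 to 0.58.

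Complex I had 15 of 34 subunits and 5 of 8 assembly factors called higher, with medians of 0.35 and 0.65. Ndufs1, the largest core subunit, which carries iron-sulfur clusters, had log2 signals of 11.33, 10.69 and 11.20 in LK GFPneg cells and of 9.98, 9.60 and 9.64 in LSK GFPneg-lo cells. The arrays did not overlap, and the log2 difference was 1.34 ± 0.32 (SE; adjusted p = 0.0033). Among the factors that help to build the complex, Ndufaf1 differed by 1.33, Ndufaf7 by 1.24 and Ndufaf6 by 1.15. Ndufv1 and Ndufv2, core subunits of the NADH-oxidising arm, were higher by 0.36 and 0.41.

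In complex III 4 of 8 subunits were higher, led by the Rieske iron-sulfur protein Uqcrfs1 (1.16 ± 0.32, SE; adjusted p = 0.00879). The core proteins Uqcrc1 (0.37) and Uqcrc2 (0.29) were not called, and a second probe set of Uqcrc2 gave 0.98. In the ATP synthase 7 of 17 subunits were higher. The catalytic beta subunit Atp5b differed by 1.34, and Atp5g1, one of 3 genes for the membrane ring subunit c, by 1.10 ± 0.18 (SE; adjusted p = 0.000107). Atp5g3, another gene for the same ring subunit, differed by 0.28, and the third, Atp5g2, was not called.

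In complex IV, with a median of 0.25, 4 of the 11 widely expressed genes were higher, Cox4i1 by 0.32, Cox6a1 by 0.31, Cox5a by 0.29 and Cox5b by 0.25. The second probe set of Cox6a1 gave 0.79, the other probe sets of Cox5a 0.26 and 0.71, and those of Cox5b -0.05 to 0.64. Cox7a2l, a factor that joins complexes III and IV into supercomplexes, was the member that was lower. Cox7a2l read 12.17, 12.33 and 12.01 in WT LK GFPneg cells and 12.55, 12.57 and 12.67 in WT LSK GFPneg-lo cells, without overlap. The difference was -0.43 ± 0.13 (SE; adjusted p = 0.0153). The counts and medians by complex rest on the brightest probe set of each gene. With the mean of all probe sets of a gene, 53 members were called in this comparison, 41 of them among the 43 called here.

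Genes of cell division moved in the same comparison, in which 13% of all genes were called higher and 14.1% lower. Of 14 proliferation markers 8 were higher and 0 lower in WT LK GFPneg cells, with a median log2 difference of 0.82, and the mean of the list was 11.54 to 11.82 on LK GFPneg arrays against 10.83 to 11.15 on LSK GFPneg-lo arrays. All 8 stem cell markers were lower. No marker on these arrays reads 0, since the lowest value of the table is 3.33. The part of proliferation in the differences of the respiratory genes was not tested.

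**Figure D3:**
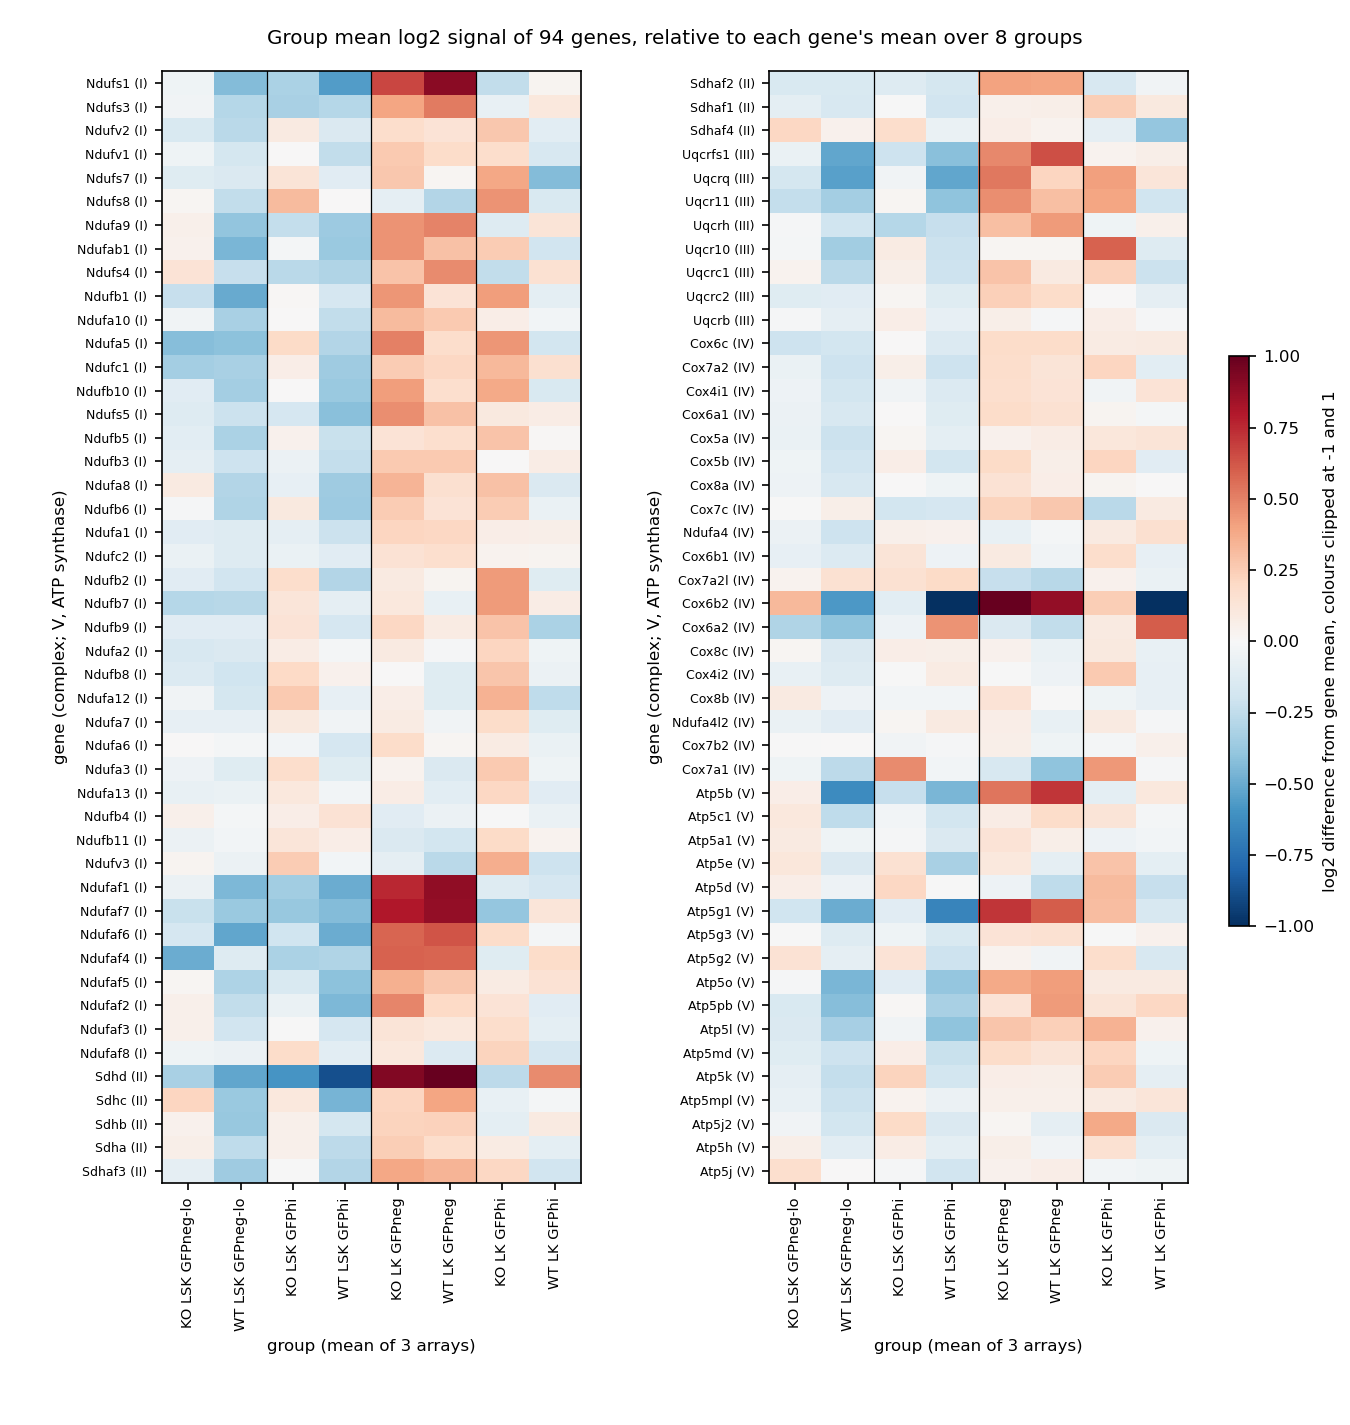
Mean log2 signal of each of the 94 genes (rows, with complex; V is the ATP synthase) in the 8 groups (columns, KO left of WT in each population), relative to the gene's mean over the groups, with colours ending at -1 and 1. Red is most common in the LK GFPneg columns, where 70 of 94 genes had their highest WT mean, with no share over all genes at hand.

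The promoters of the genes were read for short motifs of factors known to act on respiratory genes. The motifs were chosen with values of these data known, and the NRF1 and YY1 ones were shortened to a core. The windows were not split by which members differed between groups. RefSeq windows of 250 bases before to 50 after the start (GRCm38.p6) matched 78 of the 94 genes, with 83 windows. On both strands the ETS family motif CCGGAAG was in 22 windows (26.5%, against 8.86% of all windows and 13% of windows of genes on the array). The core of the NRF1 site, GCGCATG, was in 14 (16.9%, against 3.91% and 5.43%) and AAGATGG, from the YY1 site, in 11 (13.3%, against 6.34% and 6.39%). The Sp1 motif GGGCGG was in 40 (48.2%, against 35.7% and 52.4%) and TGGGAA, a core bound by Ikaros, in 15 (18.1%, against 25.6% and 24.2%). A motif found in a window is a match of letters and says nothing of binding in these cells.

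The windows of 5 genes are shown as examples and do not stand for the shares above. Each runs from 250 bases before to 30 after the start, with each ETS, NRF1 or YY1 match in capitals. Positions are counted from the start. CTTCCGG is the ETS motif read on the other strand, and 2 overlapping NRF1 cores, 1 on each strand, make up the first run of capitals in Ndufaf4. Sdhd, on the minus strand at chr9:50603820-50604099, has the ETS letters at positions -46 to -40. Ndufaf4, an assembly factor higher by 0.72 in WT LK GFPneg than in WT LSK GFPneg-lo cells, lies on the plus strand at chr4:24897833-24898112 and has NRF1 cores at -113 to -107, -110 to -104 and 2 to 8. Ndufb6, on the minus strand at chr4:40279392-40279671, has the ETS letters at -232 to -226 and an NRF1 core at -77 to -71. Ndufs8, on the minus strand at chr19:3912745-3913024, has the ETS letters at 16 to 22. Cox6b2, on the minus strand at chr7:4753065-4753344, has no ETS, NRF1 or YY1 match in its window.
Sdhd: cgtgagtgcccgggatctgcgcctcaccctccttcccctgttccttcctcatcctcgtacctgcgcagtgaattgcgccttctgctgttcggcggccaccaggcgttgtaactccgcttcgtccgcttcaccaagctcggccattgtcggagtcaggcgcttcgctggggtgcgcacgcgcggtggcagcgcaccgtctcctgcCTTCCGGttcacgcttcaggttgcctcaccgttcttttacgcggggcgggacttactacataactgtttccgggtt
Ndufaf4: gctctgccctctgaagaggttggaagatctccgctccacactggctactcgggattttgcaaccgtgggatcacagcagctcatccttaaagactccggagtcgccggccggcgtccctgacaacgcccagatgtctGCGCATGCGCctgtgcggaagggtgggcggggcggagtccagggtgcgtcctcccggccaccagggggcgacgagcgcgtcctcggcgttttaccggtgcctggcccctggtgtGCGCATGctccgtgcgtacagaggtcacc
Ndufb6: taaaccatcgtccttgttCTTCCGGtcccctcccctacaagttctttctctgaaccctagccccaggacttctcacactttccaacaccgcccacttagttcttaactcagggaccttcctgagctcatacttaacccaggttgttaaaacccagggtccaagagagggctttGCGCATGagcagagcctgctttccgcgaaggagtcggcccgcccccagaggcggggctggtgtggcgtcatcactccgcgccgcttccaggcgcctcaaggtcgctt
Ndufs8: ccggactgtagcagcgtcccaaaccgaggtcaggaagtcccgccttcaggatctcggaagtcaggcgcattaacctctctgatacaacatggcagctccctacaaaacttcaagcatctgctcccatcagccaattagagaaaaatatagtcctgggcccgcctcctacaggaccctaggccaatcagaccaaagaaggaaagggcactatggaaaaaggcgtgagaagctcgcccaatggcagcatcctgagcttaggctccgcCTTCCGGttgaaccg
Cox6b2: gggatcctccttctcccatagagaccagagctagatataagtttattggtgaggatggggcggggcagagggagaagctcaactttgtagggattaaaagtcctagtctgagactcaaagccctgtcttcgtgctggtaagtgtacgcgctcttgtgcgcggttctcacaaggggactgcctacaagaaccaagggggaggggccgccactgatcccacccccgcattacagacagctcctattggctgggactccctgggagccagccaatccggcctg

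WT LK GFPhi cells stood between the LSK and the LK GFPneg cells. Between WT LK GFPhi and WT LK GFPneg cells 1 member was higher and 8 were lower in LK GFPhi cells, with 18.6% of all genes called (9.98% higher, 8.6% lower). The median difference was -0.15 for the 94 genes and 0.00 for all genes. With the replicate number as a block 19 members were called, 1 higher and 18 lower, with 25.9% of all genes. Without WT LK GFPhi replicate 2 the count was 3. Of the lower group 4 genes belong to complex II, Sdha (-0.29) and its assembly factors Sdhaf2 (-0.43), Sdhaf3 (-0.53) and Sdhaf4 (-0.42). Atp5g1 read 10.12, 10.20 and 10.43 in LK GFPhi cells and 10.82, 11.24 and 10.99 in LK GFPneg cells. Its arrays did not overlap, and the difference was -0.77 ± 0.18 (SE; adjusted p = 0.00405).

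Between WT LK GFPhi and WT LSK GFPhi cells the median was 0.15 for the 94 genes and -0.03 for all genes, and 1 member, the complex III subunit Uqcrq, was called, higher by 0.64, where 4.55% of all genes were called (2.02% higher, 2.53% lower). Uqcrq read 10.92, 10.89 and 11.28 in LK GFPhi cells and 10.23, 10.30 and 10.62 in LSK GFPhi cells, which do not overlap. Its other 3 probe sets, all dim, gave 0.061, 0.062 and -0.10. With the replicate number as a block 15 members were called, 14 of them higher, with 13.4% of all genes. Without WT LK GFPhi replicate 2 there were 8, and there were 0 without WT LSK GFPhi replicate 1, WT LSK GFPhi replicate 2, WT LK GFPhi replicate 1 or WT LK GFPhi replicate 3. Between the LSK populations, WT LSK GFPhi against WT LSK GFPneg-lo, 1 member, Cox6a2, was called higher where 4.52% of all genes were called (1.63% higher, 2.89% lower), and the median was 0.02 against 0.04 for all genes. The block made this 3 members, 2 of them higher, with 8.09% of all genes.

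**Figure D4:**
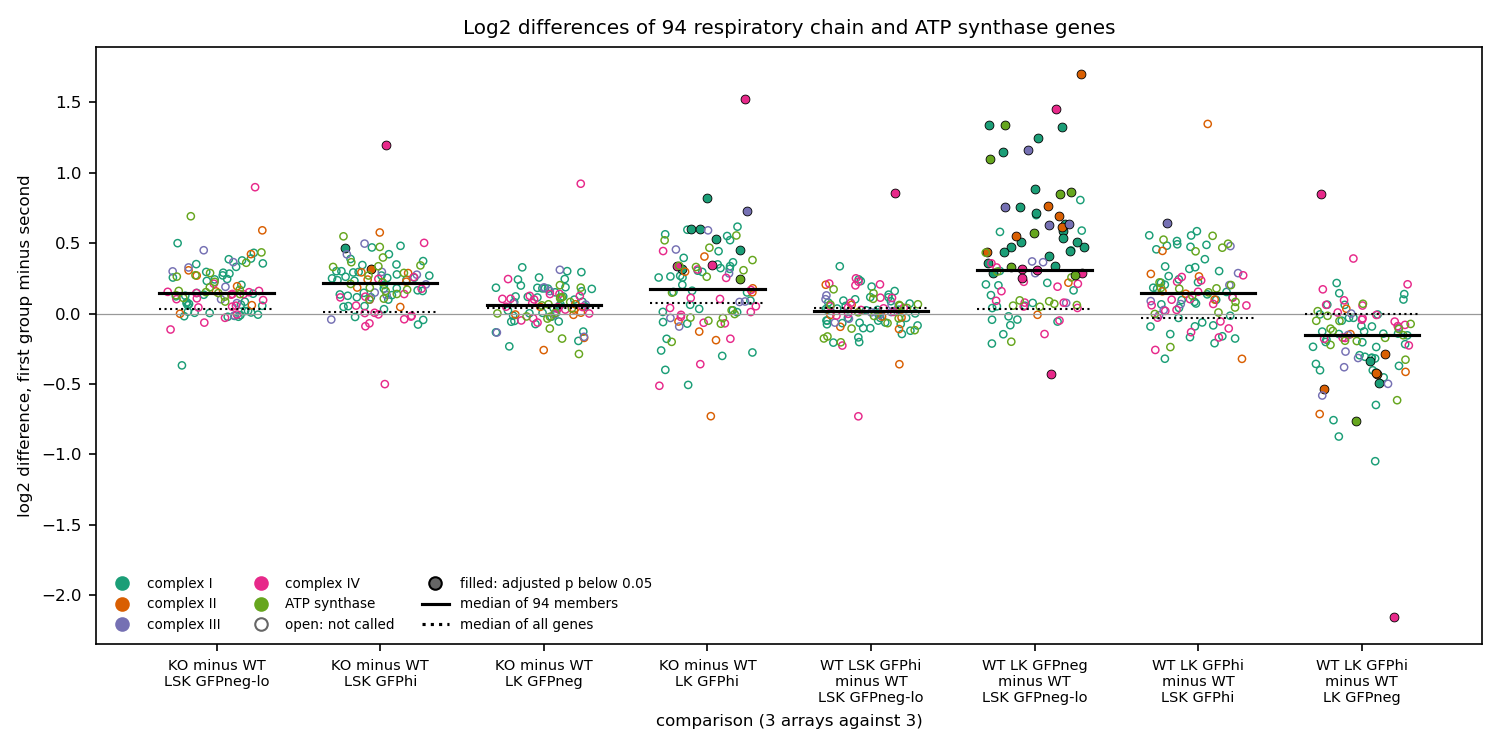
Log2 differences (y axis) of the 94 genes, coloured by complex, in 8 comparisons of 3 arrays against 3 (x axis), with called genes filled, the median of the 94 genes as a solid bar and the median of all genes dotted. In WT LK GFPneg against WT LSK GFPneg-lo cells 42 points are filled above 0, and in the 4 KO comparisons every filled point lies above 0.

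Turning to Ikaros loss, no member was called lower in KO than in WT cells in any population, and the called ones were few. In LK GFPhi cells 11 of the 94 genes were higher in KO cells, where 9.56% of all genes were called, 5.78% as higher and 3.79% as lower. In LSK GFPhi cells 3 were higher, where 4.6% of all genes were called, 2.91% as higher and 1.69% as lower. In LSK GFPneg-lo cells 0 were called, against 2.14% of all genes (1.26% higher, 0.879% lower), and in LK GFPneg cells 0, against 2.65% (1.2% higher, 1.45% lower). At an unadjusted p below 0.05 there were 11 members in LSK GFPneg-lo cells (11.7%, against 9.99% of all genes) and 2 in LK GFPneg cells (2.13%, against 10.2%). The 11.7% of members called in LK GFPhi cells thus stands beside 5.78% of all genes in the same direction, and the 3.19% in LSK GFPhi cells beside 2.91%.

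KO means lay above WT means for 81 of 94 genes among LSK GFPneg-lo cells and 83 among LSK GFPhi cells. They did so for 68 genes among LK GFPneg cells and 67 among LK GFPhi cells. The median log2 differences were 0.14, 0.22, 0.06 and 0.17 in these populations, against 0.03, 0.01, 0.04 and 0.07 for all genes. Above the median of all genes the 94 genes thus lay 0.11, 0.21, 0.02 and 0.10 log2 units. Genes as bright as the 94 were not set beside them. The medians of all genes were above 0 as well, so over all genes too the KO mean was more often the higher. For 47 genes the KO mean was the higher in all 4 populations and for 1 gene in none, with no share over all genes at hand to set beside them. KO arrays lay wholly above WT arrays for 12, 26, 5 and 32 members in the same order, against 10.5%, 9.67%, 8.26% and 17.1% of all genes. They lay wholly below for 0, 1, 0 and 0 members, against 5.38%, 6.82%, 5.61% and 7.74% of all genes.

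The 17 ATP synthase subunits were all higher on average in KO than in WT cells of both LSK populations, with medians of 0.17 in LSK GFPneg-lo and 0.27 in LSK GFPhi cells, and none was called there. Proliferation markers had a median difference of 0.36 in KO LSK GFPneg-lo cells, where 0 of 14 were called, and of 0.09 in KO LSK GFPhi cells, with 0 called, and their part was not tested. In LK GFPhi cells the complexes differed in their medians: 0.31 for complex I subunits, 0.19 for complex III, 0.25 for the ATP synthase, 0.01 for the widely expressed genes of complex IV and -0.12 for complex II subunits. Sdhd was the lowest of them. It read 10.56, 9.92 and 10.01 in KO LK GFPhi cells and 11.50, 9.83 and 11.35 in WT LK GFPhi cells. The arrays overlapped through the WT array numbered 2, and the difference of -0.73 ± 0.41 was not called (SE; adjusted p = 0.276).

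Complex I, which supplied 42 of the 94 genes, held 6 of the 11 genes called in KO LK GFPhi cells. Whether its genes were called more often than those of the other complexes was not tested. Ndufs7, a core subunit next to the coenzyme Q site, read 11.72, 12.35 and 12.26 in KO and 10.88, 11.57 and 11.42 in WT cells. The arrays did not overlap, and the difference was 0.82 ± 0.26 (SE; adjusted p = 0.0495). Ndufs8, a core subunit with 2 iron-sulfur clusters, read 12.60, 12.95 and 12.98 in KO and 12.08, 12.39 and 12.24 in WT cells. It was higher on every KO array, by 0.60 ± 0.18 on average (SE; adjusted p = 0.0434). All 6 of its probe sets gave a positive difference, between 0.24 and 0.63.

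The remaining complex I genes were accessory subunits. Ndufa12 read 12.90, 12.99 and 12.94 in KO and 12.30, 12.36 and 12.37 in WT LK GFPhi cells, a gap wider than the spread of either group, and differed by 0.60 ± 0.13 (SE; adjusted p = 0.00448). A dim probe set of the gene, the one left when those that may match several transcripts are dropped, gave -0.21. Ndufb6 read 12.32, 12.31 and 12.28 in KO and 11.98, 11.89 and 12.09 in WT cells. It differed by 0.32 ± 0.09 there (SE; adjusted p = 0.0307), and in LSK GFPhi cells by 0.46 ± 0.09 (SE; adjusted p = 0.0026). A second probe set of Ndufb6 gave 0.014 in LK GFPhi cells and 0.41 in LSK GFPhi cells. Ndufb10 was higher by 0.53 and Ndufab1, the acyl carrier protein, by 0.45 in LK GFPhi cells.

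Outside complex I, Uqcr10, a small subunit of complex III, read 10.18, 10.31 and 10.75 in KO and 9.73, 9.68 and 9.66 in WT LK GFPhi cells. The arrays did not overlap, and the difference was 0.73 ± 0.21 (SE; adjusted p = 0.0345). Uqcr10 is the one member within 10 Mb of Ikzf1, at 6.98 Mb on chromosome 11, the chromosome that carries the null allele. Strain sequence around that allele cannot be told apart from the genotype. Cox5b, a subunit on the matrix side of complex IV, was higher by 0.34 and Atp5h, a stalk subunit of the ATP synthase, by 0.25. In LSK GFPhi cells Sdha was higher in KO cells by 0.32, its arrays reading 11.82, 11.83 and 11.92 in KO and 11.52, 11.56 and 11.53 in WT cells. A second probe set of Sdha gave 0.10 in the same comparison, and the call held under 4 of 16 alternatives.

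These counts moved with the fit, and the calls in LK GFPhi cells held under 7 of 16 alternatives for Ndufs7 and Ndufs8, 8 of 16 for Uqcr10 and 15 of 16 for Ndufa12. With the replicate number as a block 38 members were called in LK GFPhi cells, 37 higher and 1 lower, with 22.2% of all genes called, and all 11 genes were among them. The block gave 3 members, all higher, in LSK GFPneg-lo cells with 4.64% of all genes, and 1 member, higher, in LK GFPneg cells with 4.88%. Centring each array on its median lowered the median of all genes by 0.12 in LK GFPhi cells and left 3 called members, 2 higher and 1 lower. Fitting the 2 LK GFPhi groups alone left 2. Without WT LK GFPhi replicate 1 there were 3 members, without KO LK GFPhi replicate 3 there were 4, without KO LK GFPhi replicate 2 there were 5 and without WT LK GFPhi replicate 3 there were 6. In LSK GFPhi cells 0 members were called with those 2 groups alone. Leaving out WT LSK GFPhi replicate 1 or 3, or KO LSK GFPhi replicate 2 or 3, left 1.

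Markers of other blood cell types differed between the genotypes as well. Of all genes 5.78% were called higher and 3.79% lower in KO LK GFPhi cells, and 2.91% and 1.69% in KO LSK GFPhi cells. In LK GFPhi cells 5 of 10 megakaryocyte and erythroid markers were higher in KO cells, and the mean of the list was 8.27, 8.49 and 9.44 on KO arrays against 7.49, 7.80 and 7.75 on WT arrays. Of 8 stem cell markers 3 were higher, with means of 9.08 to 9.21 on KO and 7.73 to 8.24 on WT arrays. Of 9 neutrophil and macrophage markers 6 were higher, with means of 7.95 to 7.98 on KO and 6.15 to 6.58 on WT arrays, and of 9 lymphoid-primed markers 7 were lower. In KO LSK GFPhi cells 3 of 8 stem cell and 3 of 9 neutrophil and macrophage markers were higher and 8 of 9 lymphoid-primed markers lower. The part of these cells in the KO differences was not tested. For proliferation markers 0 of 14 were higher and 1 was lower in KO LK GFPhi cells, with means of 11.08 to 11.47 on KO and 11.33 to 11.71 on WT arrays.

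**Figure D5:**
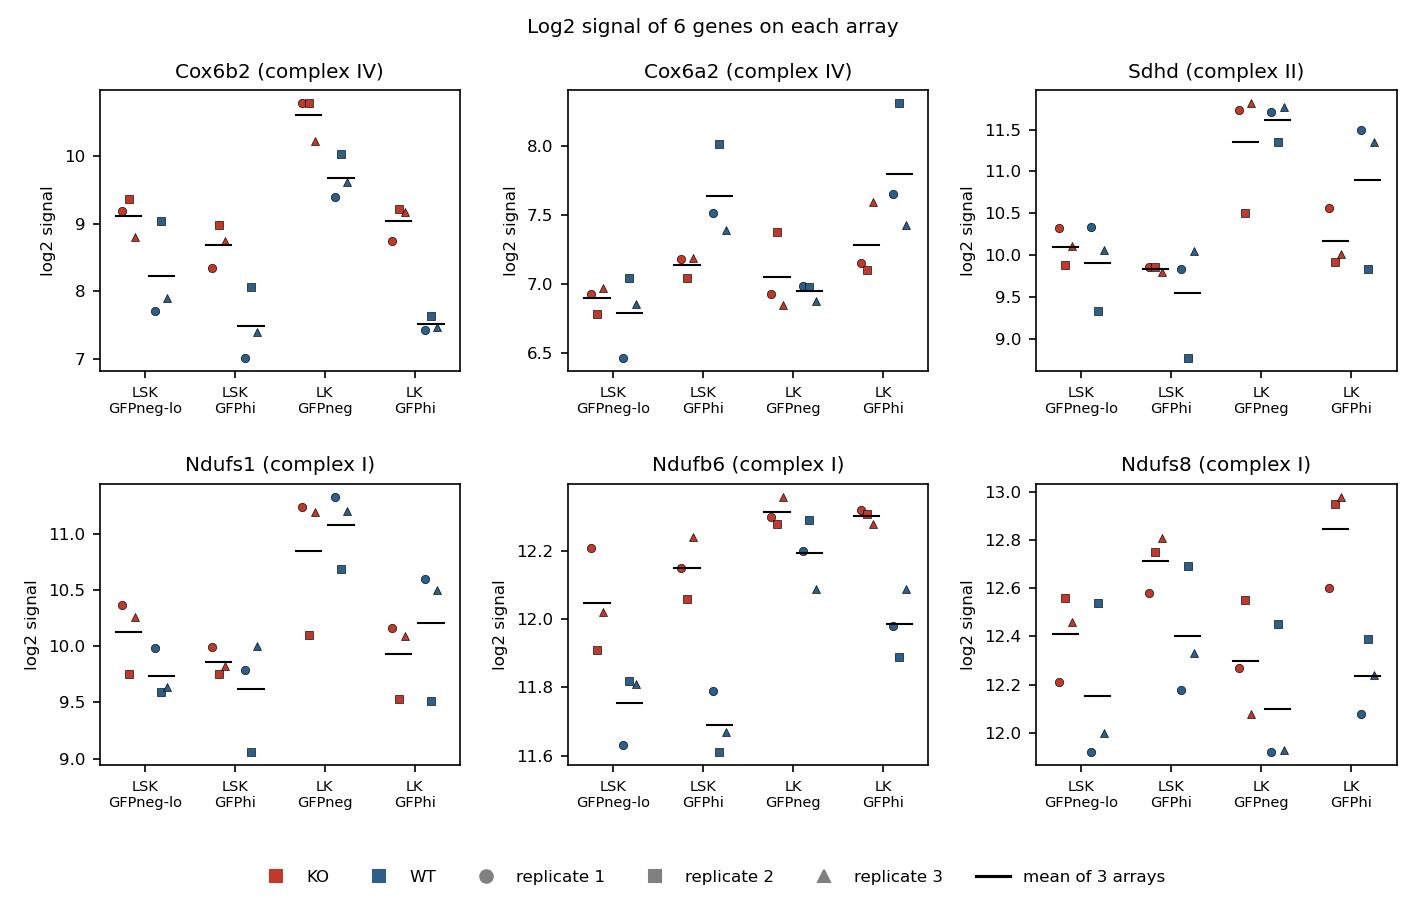
Log2 signal of 6 genes on each array (y axis), by population (x axis), KO in red and WT in blue, with the replicate number as the symbol and the mean of 3 arrays as a bar. Cox6b2 in LK GFPhi cells lies at 8.74 to 9.21 on KO arrays and at 7.43 to 7.64 on WT arrays.

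In every population the largest positive KO difference among the 94 genes belonged to a tissue-restricted isoform. Cox6b2 encodes a form of cytochrome c oxidase subunit 6B known from testis, and its widely expressed counterpart is Cox6b1. In LSK GFPneg-lo cells it read 9.18, 9.36 and 8.81 in KO and 7.71, 9.04 and 7.90 in WT cells. In LSK GFPhi cells it read 8.35, 8.97 and 8.74 in KO and 7.01, 8.06 and 7.40 in WT cells. In LK GFPneg cells it read 10.78, 10.78 and 10.22 in KO and 9.38, 10.02 and 9.61 in WT cells. In LK GFPhi cells it read 8.74, 9.21 and 9.17 in KO and 7.43, 7.64 and 7.48 in WT cells. KO arrays lay wholly above WT arrays in 3 populations, and in LSK GFPneg-lo cells the WT array numbered 2 lay among the KO arrays.

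Cox6b2 was called in KO against WT LK GFPhi cells (1.52 ± 0.30, SE; adjusted p = 0.00246) and LSK GFPhi cells (1.20 ± 0.30, SE; adjusted p = 0.0221). In LSK GFPneg-lo cells its difference was 0.90 (adjusted p = 0.18) and in LK GFPneg cells 0.92 (adjusted p = 0.149). None of the 4 tests of whether the KO difference itself differs between populations called it. In WT mice Cox6b2 was also the member that differed most between LK GFPhi and LK GFPneg cells (-2.16 ± 0.30, SE; adjusted p = 1.58e-05), and it was higher in LK GFPneg than in LSK GFPneg-lo cells by 1.45 ± 0.30 (SE; adjusted p = 0.00102). Its call in LK GFPhi cells held under 16 of 16 alternatives and that in LSK GFPhi cells under 10 of 16. Cox6b1 was called in none of the 8 comparisons, with KO against WT differences of 0.04 to 0.25. One probe set measures Cox6b2, on chromosome 7, so no second one bears on these values.

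Cox6a2, the heart and skeletal muscle form of subunit 6A, had another pattern. In WT mice it read 7.51, 8.02 and 7.40 in LSK GFPhi cells and 6.46, 7.05 and 6.86 in LSK GFPneg-lo cells. It read 7.65, 8.32 and 7.43 in WT LK GFPhi cells and 6.99, 6.98 and 6.88 in WT LK GFPneg cells. Neither pair overlapped, and the differences were 0.85 ± 0.21 (SE; adjusted p = 0.0189) and 0.85 ± 0.21 (SE; adjusted p = 0.00543). Its second probe set gave 1.30 in the LSK comparison. The mean of 9 heart and skeletal muscle markers was 5.59 to 5.98 over the 24 arrays, and 0 of the 9 were called in each of these comparisons. In KO cells Cox6a2 read 7.19, 7.05 and 7.19 in LSK GFPhi cells and 7.15, 7.10 and 7.60 in LK GFPhi cells. Against WT this gave -0.50 (adjusted p = 0.291) and -0.51 (adjusted p = 0.132), neither called. The second probe set gave -0.95 and -1.07 there. Between WT cells, the LSK call was lost without WT LSK GFPneg-lo replicate 1 (adjusted p = 0.128 in limma) or WT LSK GFPhi replicate 2 (adjusted p = 0.147), and the LK call without WT LK GFPhi replicate 2 (adjusted p = 0.0509).

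Of the other restricted forms Cox4i2, known from lung, was higher in KO LK GFPhi cells, at 7.57, 7.58 and 7.66 against 7.32, 7.29 and 7.18 in WT cells, a difference of 0.34 ± 0.10 (SE; adjusted p = 0.0358). The heart and skeletal muscle form Cox7a1 differed by 0.35 in the mean over populations. Its signal was low, with a mean of 5.31 over all arrays, at percentile 15.3 of all genes, where the lowest value of the table is 3.33. Group means of Cox7a1 ran from 4.90 in WT LK GFPneg to 5.78 in KO LSK GFPhi cells. Only 1 probe set measures Cox7a1, and whether the gene is expressed in these cells was not tested. Cox7b2, Cox8b, Cox8c and Ndufa4l2 were called in no comparison.

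The mean of the 4 KO effects, which uses all 24 arrays, called 25 members higher and 0 lower, where 16.1% of all genes were called, 9.76% as higher and 6.36% as lower. The median was 0.15 for the 94 genes and 0.04 for all genes. After Cox6b2 (1.14 ± 0.15, SE; adjusted p = 1.74e-05) the largest were Uqcrq (0.37 ± 0.08, SE; adjusted p = 0.00465) and Ndufab1 (0.36 ± 0.07, SE; adjusted p = 0.000959). The Uqcrq value was 0.016 (adjusted p = 0.871) without probe sets that may match several transcripts. That of Ndufab1 was 0.129 (adjusted p = 0.138) with all its probe sets averaged. By complex 8 of 42 complex I genes, 3 of 8 of complex II, 4 of 8 of complex III, 2 of 11 widely expressed genes and 2 of 8 restricted isoforms of complex IV and 6 of 17 ATP synthase genes were called. Eif2s3y, a Y-linked RNA, read 3.99 to 8.33 on KO arrays and 7.88 to 10.4 on WT arrays, and the part of the animals' sex was not tested further. With that level in the fit 2 of the 25 calls were left, with 4.67% of all genes called, and in LK GFPhi cells 3 of 11. Median centring left 15 of the 25.

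None of the 4 tests between KO effects called a member. All genes were called at 0.313% for LSK GFPhi against LSK GFPneg-lo, 0.808% for LK GFPneg against LSK GFPneg-lo, 0.143% for LK GFPhi against LSK GFPhi and 2.5% for LK GFPhi against LK GFPneg. The member medians of these differences between KO effects were 0.07, -0.06, -0.04 and 0.13, and the third changed sign, to 0.03, under a further quantile normalization. At an unadjusted p below 0.05 there were 0, 1, 2 and 3 members in these tests, where 3.26%, 5.85%, 8.11% and 10.4% of all genes were.

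A pair of comparisons that share no arrays can be set side by side, KO against WT LK GFPhi cells and WT LK GFPneg against WT LSK GFPneg-lo cells. They had 5 called members in common in the higher direction, Cox5b, Cox6b2, Ndufab1, Ndufb10 and Ndufb6, which is 45.5% of the 11 and 11.9% of the 42. Of all 94 genes 44.7% were called higher in the WT comparison, close to the share among the 11. Both comparisons come from 1 fit, so a gene has the same spread estimate in both, and the calls are not independent. The genes with the largest differences were otherwise apart. Sdhd and Ndufs1 stood at 1.70 and 1.34 in the WT comparison and at -0.73 and -0.28, neither called, in KO against WT LK GFPhi cells. Ndufa12 stood at 0.05, not called, in the WT comparison and at 0.60 in the KO one.

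Genes that work with the respiratory chain were counted from 7 lists, all outside the symbol rule except Sdhaf1 and Sdhaf2. Between WT LK GFPneg and WT LSK GFPneg-lo cells 13% of all genes were called higher and 14.1% lower, with a median of 0.03. There 11 of 19 citrate cycle and pyruvate dehydrogenase genes were higher and 1 lower, with a median of 0.47. Dlat, a core enzyme of pyruvate dehydrogenase, differed by 1.42 and Dlst, of the oxoglutarate dehydrogenase complex, by 1.10. Of 14 assembly factors of cytochrome c oxidase 8 were higher, Cox11, which delivers copper, by 1.10 and Cox19 by 0.49. Of 11 assembly and inhibitor genes of complexes I and II and the ATP synthase 6 were higher, among them Sdhaf2, which is also one of the 94, and the ATP synthase inhibitor Atpif1 (0.72). Cytochrome c itself, Cycs, differed by 0.56 and cytochrome c1, Cyc1, by 0.58, in a list of 7 with 2 higher and 1 lower.

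Of 9 coenzyme Q synthesis genes 4 were higher and 1 lower in that comparison, Coq3 by 1.57 and Coq8a by -0.95. Of 8 carriers and channels of the mitochondrial membranes 4 were higher, Vdac2 by 1.01 and Timm23 by 0.69. Of 17 regulators of mitochondrial biogenesis 4 were higher and 1 lower. The lower one was Ppargc1a, a coactivator of mitochondrial genes, at -1.18, and its relative Pprc1 was higher by 0.66. In WT LK GFPhi against WT LSK GFPhi cells Ppargc1a differed by -1.16.

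In KO against WT LK GFPhi cells 5.78% of all genes were called higher and 3.79% lower. From these lists Cyc1 (0.47) and Cycs (0.36) of 7 were called, with Coq4 (0.79) and Coq6 (0.60) of 9 coenzyme Q genes. Of the 19 citrate cycle genes 0 were called. Of the 17 biogenesis regulators 1 was higher and 2 lower: the mitochondrial RNA polymerase Polrmt (1.21), Nrf1 (-0.45), a transcription factor of respiratory genes, and Yy1 (-0.41). In LSK GFPhi cells Atpif1 (0.53), Cycs (0.38) and Coq6 (0.44) were higher, and in LSK GFPneg-lo cells Pdk4 (0.35), a kinase that shuts off pyruvate dehydrogenase. These calls held under 10 of 16 alternatives for Atpif1, 5 of 16 for Cycs, 4 of 16 for Coq6 and 7 of 15 for Pdk4. In LK GFPhi cells Cyc1 held under 9 of 16, Cycs under 8 of 16 and Coq4 under 14 of 16. In LK GFPneg cells none of the 7 lists had a called gene.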

How the data were processed

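Per the labels' protocols, RNA was prepared with Trizol, and 6 ug went into labelled cRNA for each of 24 Affymetrix arrays. The authors deposited log2 signal made with RMA, per the submitters' processing notes (release not given in the sources used here). The deposited signals lay between 3.33 and 14.5. Precision is limited by having 3 arrays per group. Of 45101 probe sets, 64 controls, 932 with several symbols and 9160 with none were left out. For each of 18193 genes the probe set with the highest mean was kept. Ndufs6, Ndufa11 and Cox7b share their probe sets with other symbols and were not analysed here. Coordinates and promoters come from RefSeq (GRCm38.p6).

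The 8 group means were fitted in 1 model with limma 3.58.1 in R 4.3.3 (lmFit, eBayes, 16 residual and 3.27 prior degrees of freedom). Within each of 13 comparisons the Benjamini-Hochberg method adjusted the two-sided p-values over all genes, with a threshold of 0.05. Exact permutation tests of 3 against 3 cannot go below 0.1. On simulated data of this size, 31.3 to 50.7% of differences of 0.5 log2 units were recovered, 76.1 to 88.1% of 1 and 95.5 to 100% of 2. Members, lists and comparisons were chosen with earlier results of these data known. Named genes were up to 6 called members each way per comparison (3 for interactions and the mean), a panel of core subunits and isoforms, and up to 2 called genes per pathway list. The choice of further genes followed a look at their values, as did that of the promoter motifs, of which the NRF1 and YY1 ones were shortened to a core.

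The replicate numbers pair the samples where deviations from the group means of same-numbered arrays correlate above 0.1 in every pair. The lowest correlation was 0.171 to 0.582 in 7 of the 8 comparisons of 2 groups and 0.024 for KO against WT LSK GFPhi cells, which was taken as unpaired. Alternatives covered the replicate block, the compared groups alone, array weights, filters and choice of probe sets, scaling, each array left out and, added after the data were seen, the Eif2s3y level.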

Additional observations from a re-analysis of the deposited data

How the results depend on the processing

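The signs of the member medians were those of the fit in every alternative run, apart from the KO effect in LK GFPhi against LSK GFPhi cells under quantile normalization, and where single arrays were left out as given below. Counts of called members moved as follows, and the cause was not tested except that fewer samples or genes enter some fits. With the replicate block, which pairs the arrays by number, they were 3 for KO against WT LSK GFPneg-lo, 12 for LSK GFPhi, 1 for LK GFPneg and 38 for LK GFPhi cells. They were 3 for WT LSK GFPhi against LSK GFPneg-lo, 15 for WT LK GFPhi against LSK GFPhi, 19 for WT LK GFPhi against LK GFPneg, 44 for the mean of the 4 KO effects and 1 for the KO effect in LK GFPhi against LK GFPneg cells. With the block kept within a genotype these 3 comparisons of WT cells gave 2, 17 and 22, and the KO effect in LK GFPhi against LK GFPneg cells 1. For WT LK GFPneg against LSK GFPneg-lo the block gave 55, and it moved no other count by over 1.5 times. For KO against WT LSK GFPhi cells the numbers share only a label, by the check above.

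With the compared groups alone the counts were 0 for KO against WT LSK GFPhi, 2 for KO against WT LK GFPhi, and 0 for WT LSK GFPhi against LSK GFPneg-lo and for WT LK GFPhi against LSK GFPhi. Array weights gave 4, 9, 2 and 21 for KO against WT LSK GFPneg-lo, LSK GFPhi, LK GFPneg and LK GFPhi. They gave 2 for WT LSK GFPhi against LSK GFPneg-lo, 16 for WT LK GFPhi against LSK GFPhi, 41 for the mean and 1 for the KO effect in LK GFPneg against LSK GFPneg-lo. The mean of all probe sets of a gene gave 5 for KO against WT LSK GFPhi, 2 for WT LSK GFPhi against LSK GFPneg-lo, 4 for WT LK GFPhi against LSK GFPhi and 15 for WT LK GFPhi against LK GFPneg. Without x_at and s_at probe sets, 1 member was called in KO against WT LK GFPneg, Ndufa12 gave -0.21 in KO against WT LK GFPhi and Uqcrq gave -0.10 in WT LK GFPhi against LSK GFPhi.

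Median centring gave 3 for KO against WT LK GFPhi, 4 for WT LK GFPhi against LSK GFPhi, 24 for WT LK GFPhi against LK GFPneg and 15 for the mean. It moved the member medians to 0.048 in KO against WT LK GFPhi, 0.48 in WT LK GFPneg against LSK GFPneg-lo and -0.26 in WT LK GFPhi against LK GFPneg. The median for KO against WT LSK GFPneg-lo became 0.095 and that of the mean KO effect 0.093. For the KO effect in LK GFPhi it moved them to -0.11 against LSK GFPhi and 0.025 against LK GFPneg. Further quantile normalization gave 2 for KO against WT LSK GFPneg-lo, and 0 with a median of 0.072 for WT LK GFPhi against LSK GFPhi. The Eif2s3y level gave 0 for KO against WT LSK GFPhi, 3 for LK GFPhi and 2 for the mean.

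With each array left out, counts ran from 0 to 2 for KO against WT LSK GFPneg-lo, 1 to 2 for LSK GFPhi, 0 to 0 for LK GFPneg and 3 to 13 for LK GFPhi, and from 21 to 34 for the mean. They ran from 0 to 1 for WT LSK GFPhi against LSK GFPneg-lo, 28 to 40 for WT LK GFPneg against LSK GFPneg-lo, 0 to 8 for WT LK GFPhi against LSK GFPhi and 3 to 10 for WT LK GFPhi against LK GFPneg. The one count above 0 for KO against WT LSK GFPneg-lo cells came without WT replicate 2. Member medians ran from 0.11 to 0.21, 0.18 to 0.27, 0.02 to 0.12 and 0.15 to 0.25 for KO against WT in the order of populations above, from -0.03 to 0.07 for WT LSK GFPhi against LSK GFPneg-lo and from 0.264 to 0.394 for WT LK GFPneg against LSK GFPneg-lo. The range was -0.001 to 0.113 for the KO effect in LSK GFPhi against LSK GFPneg-lo, -0.133 to -0.01 for LK GFPneg against LSK GFPneg-lo and -0.084 to 0.014 for LK GFPhi against LSK GFPhi.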
